A study of Homo sapiens with 12 samples.

Results

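The genes described here are 36 genes of neurons and neuroendocrine cells, among them the repressor REST and genes that it is known to hold silent outside the nervous system. They were chosen as a list of symbols, and each symbol was found once among the 60675 genes of every count file. RNA sequencing was carried out on 12 libraries of prostate cancer cells, 2 per group in 6 groups. LNCaP is an androgen-dependent line from a lymph node metastasis, and LNCaP:C4-2 (C4-2) is its castration-resistant derivative, so each line is a single lineage and not a set of patients. All 6 groups received 1 nM of R1881, a synthetic androgen, for 72 h, and no group without androgen was part of this comparison. In C4-2, R1881 was given alone, with namoline, with TCE-5002, or with both inhibitors (the combination), and in LNCaP it was given alone or with both. Namoline, used at 50 µM, inhibits the lysine demethylase KDM1A, and TCE-5002 is described by the study as selective for the demethylase KDM7A. The study adds that TCE-5002 also acts on the demethylases KDM7B (PHF8) and KDM2A at concentrations under 50 µM. The dose of TCE-5002 was 100 µM in the series text and lower in the methods of the study, so it is given here as unsettled. The comparisons ask how these genes changed when the demethylases were inhibited alone or together.

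REST is a zinc finger protein that binds a long DNA element named RE1 and recruits corepressors, among them the CoREST complex that carries KDM1A. In tissues outside the nervous system it keeps genes of vesicle release, hormone granules and the axonal skeleton silent. In prostate cancer, loss of REST activity and a rise of chromogranin A (CHGA), synaptophysin (SYP), NCAM1 and INSM1 are hallmarks of neuroendocrine tumours. SRRM4, a splicing factor, is known to drive the inclusion of a neural exon that inactivates REST.

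The library totals lay between 14791602 and 20690819 counts, and levels are given as counts per 1000000 (CPM) after library scaling. The labels were checked against marker genes first. The 14 luminal prostate markers summed to between 3034 and 8747 CPM in the 8 C4-2 libraries and to between 541 and 1192 CPM in the 4 libraries labelled LNCaP, with none at 0. The 12 mesenchymal markers summed to between 67.5 and 104.5 CPM in C4-2 and to between 821 and 1035 CPM in the libraries labelled LNCaP. The 6 basal markers stayed at or below 13.1 CPM in every library. By these sums the libraries labelled LNCaP carry less of the luminal set and more of the mesenchymal set than the derivative does. They are called "labelled LNCaP" throughout. Single markers were not all alike under R1881, with 13 of the 14 luminal markers higher in C4-2 and 1 lower. Of the 10 mesenchymal markers with enough counts, 8 were lower in C4-2 and 2, COL1A1 and PDGFRB, higher. The file of LNCaP combination replicate 1 has a header whose alignment name holds namoline but not TCE-5002, against its title. Counts of genes past the threshold with both inhibitors in the libraries labelled LNCaP, and the values of the genes past it, are therefore given with and without this library, apart from single genes of the other lists whose call it did not change.

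The RE1 element was searched for in RefSeq promoter windows (GRCh38.p14, 250 bases before to 50 after a start site), as 2 arms, CAGCACC and GGACAG, with 2 bases between them, on both strands. Of the 36 genes, 24 had a window, 34 windows in all, and none of these held the element with at most 2 mismatches over the 13 letters, against 2.03% of 35116 windows of all genes. Of a second list of 35 neuronal genes known to be bound by REST, 27 had a window, and 5 of their 46 windows (10.9%) held it. With the exact arms set 7 to 10 bases apart, 1 of the 34 windows (2.94%) matched, that of SCG3, against 0.0655% of all windows. These stretches are shown because they are the letters that REST is known to read. They are printed 5′ to 3′ on the strand of the match, with capitals marking letters equal to the arms.
SCG3 (chr15:51681513-51681533, plus strand, arms 8 bases apart): CAGCACCcacagggcGGACAG
UNC13A (chr19:17688342-17688362, plus strand, arms 8 bases apart): CAGCACCgggggcgcGGACAG
SYN1 (chrX:47620074-47620088, minus strand, 0 mismatches): CAGCACCgcGGACAG
VGF (chr7:101165561-101165575, plus strand, 1 mismatch): CAGCACgctGGACAG
CDK5R1 (chr17:32486980-32486994, plus strand, 1 mismatch): CAGaACCttGGACAG
SCAMP5 (chr15:74995388-74995402, plus strand, 1 mismatch): tAGCACCtcGGACAG
TUBB3 (chr16:89921813-89921827, plus strand, 2 mismatches): CAGCcCCctGGcCAG
RE1 elements often lie outside promoters, so no match here says only that the letters are not in these windows.

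Under R1881 alone the levels of the 36 genes differed widely between the lines. Of the 36, 24 had at least 10 counts in both R1881 libraries labelled LNCaP, against 11 in C4-2. A gene was judged in a comparison only if it passed the low-count filter and had at least 10 counts in every library of at least 1 of the groups compared. Past the threshold means an adjusted p under 0.05 by edgeR's quasi-likelihood test and a change of at least 2-fold. Of the 25 genes judged between the lines, 17 were lower and 2 higher in C4-2, where 50.5% of all 19763 genes tested passed in either direction, 26.2% lower and 24.3% higher. The median log2 difference of the 25 was -6.42, against 0.001 over all genes tested. A gene could enter this count through its high level in 1 line alone, so the count is a description.

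**Figure D1:**
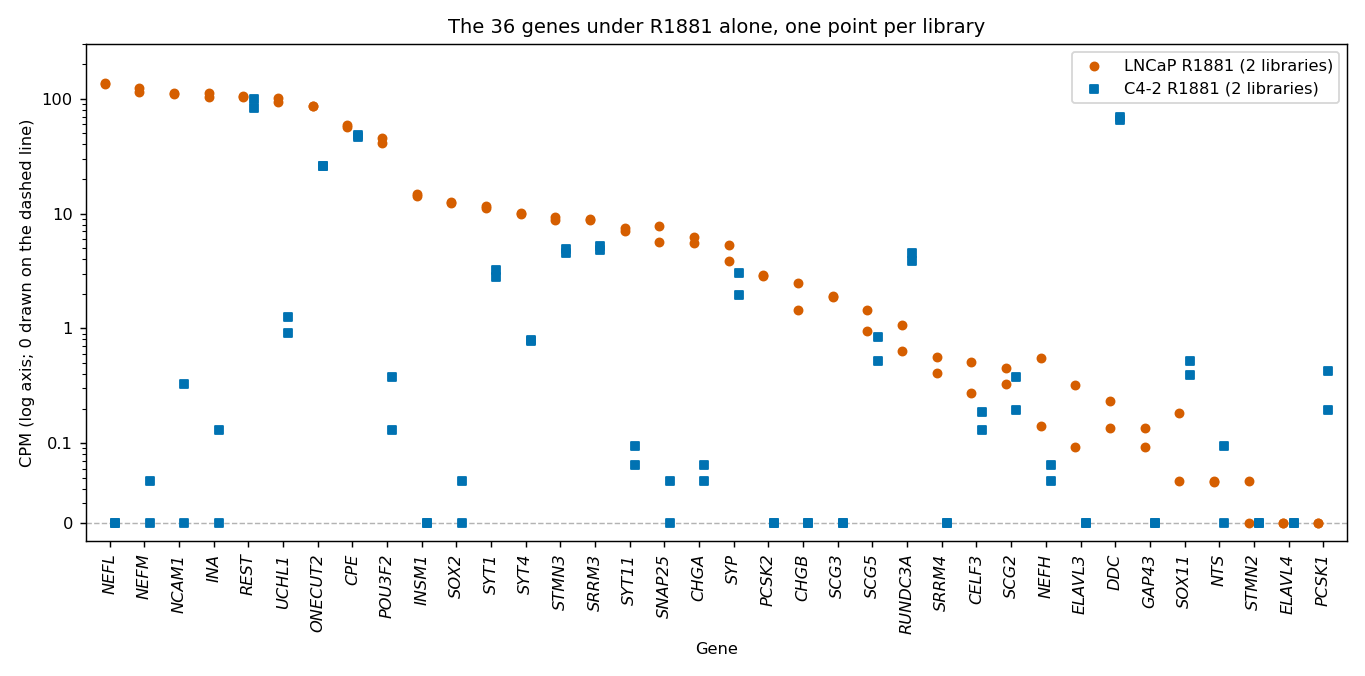
CPM of each of the 36 genes in the 2 R1881 libraries labelled LNCaP (orange circles) and the 2 of C4-2 (blue squares), on a log axis with values of 0 drawn on the dashed line, ordered by the level in the libraries labelled LNCaP. NEFL, NEFM, NCAM1 and INA lie above 100 CPM in orange and at or below 0.33 CPM in blue, while DDC lies near 67.0 CPM in blue and under 0.24 CPM in orange.

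Of the axonal skeleton genes, NEFL, NEFM and INA were near 0 in C4-2. NEFL (chromosome 8, 24950955 to 24957110), the light neurofilament chain, was at 133 and 138 CPM in the libraries labelled LNCaP and at 0 counts in both C4-2 R1881 libraries, at least 1660-fold higher when 3 counts over the group are taken as the floor. NEFM, the medium chain, was at 124 and 115 CPM against 1 and 0 counts, and INA, the related filament alpha-internexin, at 104 and 113 CPM against 0 and 2 counts. NCAM1 (chromosome 11, 112961247 to 113278436), a neural adhesion molecule also known as CD56, was at 112 and 109 CPM against 0 and 0.325 CPM, a log2 difference of C4-2 minus LNCaP of -9.56 (SE 0.25, edgeR adjusted p 4.61e-20). UCHL1, a ubiquitin hydrolase abundant in neurons, was at 93.7 and 102 CPM against 1.26 and 0.909 CPM (log2 difference -6.42, SE 0.17, edgeR adjusted p 4.34e-20). In all of these the groups did not overlap. Per kilobase of exon, UCHL1 was at 42.8, INA at 33.6, NEFL at 31.3 and NCAM1 at 8.67 CPM in the libraries labelled LNCaP, so UCHL1 was the most abundant of these 4 by length.

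Of the 5 lineage factors of the list, INSM1, SOX2, POU3F2 and ONECUT2 were higher in the libraries labelled LNCaP. SOX11 was too low to judge and went the other way, at 1 and 4 counts against 11 and 6 in C4-2, a ratio of 0.249 with a 95% counting interval of 0.0717 to 0.702. INSM1 (chromosome 20, 20368121 to 20370949), a zinc finger factor of neuroendocrine differentiation, was at 14.3 and 14.9 CPM against 0 counts, at least 179-fold. SOX2 (chromosome 3, 181711924 to 181714436), a factor of neural and stem cells, was at 12.5 and 12.7 CPM against 1 and 0 counts, a ratio of 462 with a 95% counting interval of 82.6 to 18300. POU3F2 (BRN2), a neural POU factor, was at 45.6 and 40.8 CPM against 0.374 and 0.130 CPM (log2 difference -7.25, SE 0.26, edgeR adjusted p 9.88e-18). ONECUT2 was lower in C4-2 too but well expressed in both lines, at 86.7 and 87.1 CPM against 26.1 and 25.8 CPM (log2 difference -1.71, SE 0.10, edgeR adjusted p 1.84e-13).

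Of the hormone granule genes, the granins CHGA, CHGB and SCG3 were near 0 in C4-2. SCG2, at 7 and 10 counts in the R1881 libraries labelled LNCaP against 8 and 3 in C4-2, was too low to judge. PCSK1 was too low as well and went the other way, at 0 counts against 9 and 3. CHGA (chromosome 14, 92923080 to 92935293) was at 5.58 and 6.19 CPM against 1 and 1 counts, a ratio of 108 with a 95% counting interval of 29.6 to 898. CHGB and SCG3 were at 0 counts in both C4-2 R1881 libraries, against 1.44 and 2.50 and 1.86 and 1.91 CPM, at least 24.2-fold and 23.1-fold. PCSK2, a convertase that cuts prohormones, was at 2.88 and 2.91 CPM against 0 counts, at least 35.5-fold. CPE (chromosome 4, 165361194 to 165498320), the carboxypeptidase that trims cut prohormones, differed by less than 2-fold, at 57.1 and 59.5 CPM against 46.2 and 47.9 CPM (log2 difference -0.28, SE 0.10, edgeR adjusted p 0.0106). SCG5, the chaperone of PCSK2, was low in both, at 31 and 21 counts against 18 and 8, and did not pass (-0.74, SE 0.45, edgeR adjusted p 0.139).

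The vesicle genes fell into several levels. SYP (chromosome X, 49187804 to 49200259), a membrane protein of synaptic vesicles, was at 3.86 and 5.28 CPM against 3.04 and 1.95 CPM, under 2-fold (log2 difference -0.81, SE 0.26, edgeR adjusted p 0.00715), and it passed the threshold without LNCaP R1881 replicate 1 (-1.05) or C4-2 R1881 replicate 1 (-1.21). SYT1, the calcium sensor of transmitter release, was at 11.2 and 11.7 against 3.23 and 2.79 CPM, SYT4 at 9.81 and 10.1 against 0.796 and 0.779 CPM, and SYT11 at 7.07 and 7.50 against 0.0936 and 0.0650 CPM, with log2 differences of -1.88, -3.61 and -6.34 (SE 0.19, 0.27 and 0.38). SNAP25, a SNARE of vesicle fusion, had 121 and 171 counts against 1 and 0. The synaptotagmins and SNAP25 were thus all higher in the libraries labelled LNCaP, with no overlap between the groups.

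DDC and RUNDC3A were the judged genes that went the other way. DDC (chromosome 7, 50458436 to 50565457), the decarboxylase that makes dopamine and serotonin, was at 69.0 and 65.0 CPM in C4-2 and at 0.233 and 0.136 CPM in the libraries labelled LNCaP, a log2 difference of 8.49 (SE 0.23, edgeR adjusted p 1.03e-19). RUNDC3A had 82 and 70 counts in C4-2 against 23 and 14, but it overlaps the antisense gene RUNDC3A-AS1 and the counting was taken as unstranded, so its counts are uncertain. The antisense gene shares 4.6% of the exon bases of RUNDC3A and was itself higher in C4-2, at 15.3 and 18.5 CPM under R1881 against 2.33 and 1.23. The span of DDC overlaps FIGNL1 on the same strand, with which it shares 0 exon bases, and shares 3.6% of its exon bases with DDC-AS1, an antisense gene with a mean of 2.1 counts. An antisense gene with a mean of 4.3 counts shares 38.9% of those of NEFM. REST itself (chromosome 4, 56907876 to 56935844) was at 104 and 107 CPM in the libraries labelled LNCaP and at 99.8 and 83.9 CPM in C4-2, a log2 difference of -0.16 (SE 0.09, edgeR adjusted p 0.119), which did not pass the test. The mesenchymal markers differed between the same libraries, and their part in these differences was not tested. In bulk libraries, fewer cells of a type and less RNA per cell cannot be told apart.

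Of the 36 genes, 11 were judged in no comparison, with at most 12 counts in any library. They were SCG2, STMN2, NEFH, GAP43, CELF3, SRRM4, ELAVL3, ELAVL4, PCSK1, NTS and SOX11. ELAVL4 had 0 counts in all 12 libraries. SRRM4 had 12 and 9 counts under R1881 in the libraries labelled LNCaP and 0 in 7 of the 8 C4-2 libraries, so its part in REST splicing could not be followed at this depth. In C4-2, 22 of the 36 stayed under 10 counts in every library, whatever the treatment, and 4 (CHGB, STMN2, GAP43 and ELAVL4) had 0 counts in all 8. CHGA had at most 4 counts in any C4-2 library, NCAM1 at most 5, INSM1 at most 2 and NEFL at most 6. None of these markers thus rose beyond a few counts per library with an inhibitor in C4-2, and a change within that range could not be judged at this depth.

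In C4-2, each inhibitor alone moved few of the genes that could be judged. With namoline, 1 of 11 judged genes passed, in the upward direction, where 12.1% of all 17702 genes tested passed in either direction, 5.17% higher and 6.88% lower. With TCE-5002, 2 of 11 passed, 1 higher and 1 lower, where 11.8% of all genes tested passed, 5.04% higher and 6.8% lower. With the combination, 3 of 12 passed, all lower, where 21.7% of all genes tested passed, 8.87% higher and 12.8% lower. Without the 2-fold condition 4, 4 and 6 genes passed, where 35%, 36.5% and 50.3% of all genes tested did. The median log2 change of the judged genes was -0.27 with namoline, -0.01 with TCE-5002 and -0.59 with the combination, against -0.004, 0 and -0.034 over all genes tested. Shares this near to those of all genes are not a result about the list, and what follows describes single genes. The 3 comparisons share the same R1881 libraries.

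**Figure D2:**
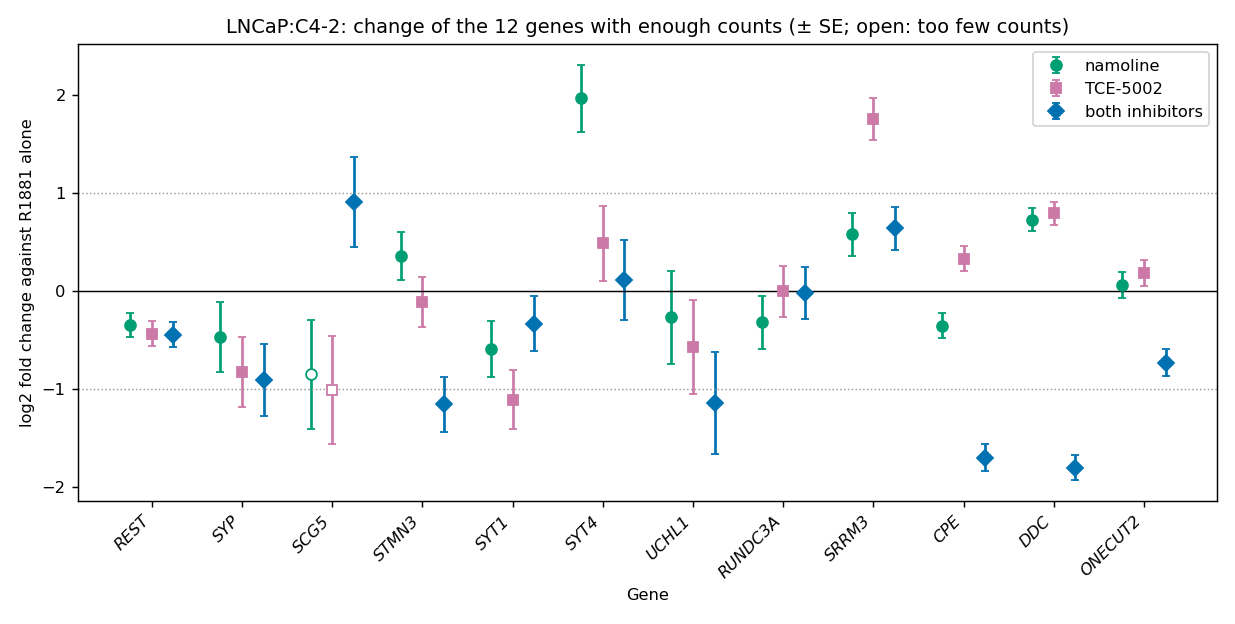
log2 fold change against R1881 alone of the 12 genes judged in the C4-2 combination comparison, for namoline (green circles), TCE-5002 (pink squares) and both inhibitors (blue diamonds), with bars of 1 SE; dotted lines mark 2-fold and open symbols a comparison with too few counts. DDC lies above 0 with each inhibitor and at -1.81 with both, SYT4 stands out with namoline and SRRM3 with TCE-5002.

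REST fell mildly under all 3 treatments. It was at 99.8 and 83.9 CPM under R1881, 75.0 and 70.6 CPM with namoline, 73.4 and 62.2 CPM with TCE-5002 and 71.0 and 65.8 CPM with the combination. Every treated library lay below both R1881 libraries. The log2 changes were -0.35 (SE 0.13, edgeR adjusted p 0.0432), -0.44 (SE 0.13, edgeR adjusted p 0.0141) and -0.45 (SE 0.13, edgeR adjusted p 0.00851), all under 2-fold. SRRM3 (chromosome 7, 76201900 to 76287288), a relative of SRRM4 that promotes the inclusion of neuronal microexons, rose with TCE-5002. It was at 4.82 and 5.26 CPM under R1881, 8.22 and 6.89 CPM with namoline, 14.9 and 19.0 CPM with TCE-5002 and 6.52 and 9.45 CPM with the combination. The TCE-5002 libraries were the highest and overlapped with no other group. The log2 change with TCE-5002 was 1.75 (SE 0.21, edgeR adjusted p 2.82e-05), and 1.26 after a correction for GC content. With namoline it was 0.57 (SE 0.22, edgeR adjusted p 0.0574) and with the combination 0.64 (SE 0.22, edgeR adjusted p 0.0262).

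The 250 bases upstream of the SRRM3 start are shown because SRRM3 rose most with TCE-5002, and those of SYT4 and DDC follow where these genes are described. They come from RefSeq (GRCh38.p14), run in the direction of the gene and have each CG dinucleotide in capitals, the base pair at which vertebrate DNA is methylated. The SRRM3 stretch holds 26 of them.
SRRM3 (chr7:76201646-76201895, plus strand): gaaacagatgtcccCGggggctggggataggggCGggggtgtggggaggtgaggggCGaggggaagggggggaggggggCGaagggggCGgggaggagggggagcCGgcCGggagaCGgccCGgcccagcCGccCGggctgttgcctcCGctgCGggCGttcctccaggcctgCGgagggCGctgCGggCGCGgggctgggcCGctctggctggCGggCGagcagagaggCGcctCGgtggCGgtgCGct
Over the whole 300-base window SRRM3 had 30 CG dinucleotides and a GC content of 77.7%, against medians of 14 and 58.7% over all windows.

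DDC showed opposite changes with 1 and with 2 inhibitors. It was at 69.0 and 65.0 CPM under R1881, 119 and 105 CPM with namoline, 120.0 and 112 CPM with TCE-5002 and 20.6 and 18.4 CPM with the combination. All libraries with a single inhibitor lay above, and both combination libraries below, those of R1881. The rises were 0.73 (SE 0.12, edgeR adjusted p 0.000275) and 0.79 (SE 0.12, edgeR adjusted p 0.000149), under 2-fold, and with the combination DDC fell by 1.81 on the log2 scale, 3.50-fold (SE 0.13, edgeR adjusted p 8.33e-08). Both of its RefSeq start sites lie in stretches poor in CG, with 2 and 3 such dinucleotides in the 250 bases upstream, against 8 for SYT4.
DDC, upstream start (chr7:50565406-50565655, minus strand): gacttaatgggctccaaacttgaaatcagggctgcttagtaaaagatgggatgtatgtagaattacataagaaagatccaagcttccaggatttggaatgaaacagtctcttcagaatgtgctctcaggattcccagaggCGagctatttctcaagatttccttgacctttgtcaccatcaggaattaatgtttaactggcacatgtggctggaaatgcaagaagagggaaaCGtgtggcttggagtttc
DDC, downstream start (chr7:50561072-50561321, minus strand): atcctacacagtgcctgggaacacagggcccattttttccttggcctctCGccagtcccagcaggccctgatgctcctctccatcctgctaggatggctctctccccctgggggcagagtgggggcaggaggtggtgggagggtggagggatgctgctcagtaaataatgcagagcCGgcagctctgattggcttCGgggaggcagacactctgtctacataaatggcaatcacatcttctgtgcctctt
FIGNL1, whose span overlaps that of DDC, was at 32.4 and 25.8 CPM under R1881, 77.7 and 75.7 CPM with namoline, 52.8 and 42.7 CPM with TCE-5002 and 35.7 and 29.7 CPM with both, and its part in the DDC counts was not tested.
NTS, the neurotensin gene and the other transmitter gene of the list, had at most 2 counts in any library.

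Of the granule genes, CPE fell with the combination and SCG5 was highest there. CPE was at 46.2 and 47.9 CPM under R1881, 37.3 and 37.0 CPM with namoline, 64.8 and 53.0 CPM with TCE-5002 and 15.2 and 14.1 CPM with both. The combination libraries were the lowest, with no overlap with another group. CPE fell by 1.71 with the combination (3.26-fold, SE 0.14, edgeR adjusted p 3.23e-07), fell by 0.36 with namoline (SE 0.13, edgeR adjusted p 0.0436), and was at 0.32 with TCE-5002 (SE 0.13, edgeR adjusted p 0.0579). SCG5 had 18 and 8 counts under R1881, 5 and 8 with namoline, 9 and 4 with TCE-5002 and 24 and 21 with both. Against R1881 its change with the combination did not pass (0.91, SE 0.46, edgeR adjusted p 0.112), and with each inhibitor alone its counts were too low to judge.

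Among the vesicle genes SYT4 (chromosome 18, 43267878 to 43277650), a synaptotagmin of dense core and other vesicles, rose with namoline. It had 0.796 and 0.779 CPM under R1881, 2.84 and 3.42 CPM with namoline, 1.24 and 0.964 CPM with TCE-5002 and 0.738 and 1.00 CPM with both. The namoline libraries stood above all others, although at 48 and 57 counts. The log2 change was 1.96 with namoline (3.90-fold, SE 0.34, edgeR adjusted p 0.00052), 0.48 with TCE-5002 (SE 0.38, edgeR adjusted p 0.35) and 0.11 with both (SE 0.41, edgeR adjusted p 0.847).
SYT4 (chr18:43277491-43277740, minus strand): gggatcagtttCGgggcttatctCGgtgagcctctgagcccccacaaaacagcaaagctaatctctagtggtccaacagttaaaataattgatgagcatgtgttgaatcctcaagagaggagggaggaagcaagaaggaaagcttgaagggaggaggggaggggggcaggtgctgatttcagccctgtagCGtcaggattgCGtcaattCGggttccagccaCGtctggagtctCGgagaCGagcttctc
SYT1 (chromosome 12, 78863993 to 79452008) fell with TCE-5002, from 3.23 and 2.79 to 1.24 and 1.55 CPM, by 1.11 on the log2 scale (SE 0.30, edgeR adjusted p 0.00938). This call was lost without R1881 replicate 1 (-0.98, edgeR adjusted p 0.0951) and, at -0.97, came under 2-fold without TCE-5002 replicate 1. SYT1 was at 2.31 and 1.74 CPM with namoline and 2.67 and 2.19 CPM with both, and neither change passed (-0.59 and -0.34). SYP was at 3.04 and 1.95 CPM under R1881, 2.37 and 1.32 CPM with namoline, 1.24 and 1.61 CPM with TCE-5002 and 1.53 and 1.19 CPM with both. None of its changes passed (-0.47, -0.83 and -0.92, with edgeR adjusted p of 0.323, 0.084 and 0.0505), and with TCE-5002 the GC correction brought it to -1.08 and past the threshold. With both inhibitors it passed, at -1.19, without R1881 replicate 2. RUNDC3A had from 55 to 99 counts in the 8 C4-2 libraries, with log2 changes of -0.32, -0.01 and -0.02 that did not pass.

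STMN3 (chromosome 20, 63639705 to 63657682), a stathmin that destabilises microtubules in neurons, fell with the combination. It was at 4.49 and 4.94 CPM under R1881, 5.27 and 6.89 CPM with namoline, 3.42 and 5.25 CPM with TCE-5002 and 2.44 and 1.81 CPM with both. The combination libraries were the lowest, and the other 3 groups overlapped in part. The fall was by 1.16 on the log2 scale (SE 0.28, edgeR adjusted p 0.0033), and by 0.95, under 2-fold, without combination replicate 2. UCHL1 had 27 and 14 counts under R1881 and 13 and 4 with the combination, and its log2 change of -1.15 did not pass (SE 0.52, edgeR adjusted p 0.0803). It was -2.13, past the threshold, without combination replicate 1. ONECUT2 (chromosome 18, 57435685 to 57491297) was at 26.1 and 25.8 CPM under R1881, 29.6 and 25.0 CPM with namoline, 28.8 and 29.9 CPM with TCE-5002 and 15.9 and 15.8 CPM with both. It fell by 0.74 with the combination (SE 0.14, edgeR adjusted p 0.000523), under 2-fold, and did not pass with either inhibitor alone (edgeR adjusted p 0.776 and 0.32). SOX11 had 11 and 6 counts under R1881 and 1 and 2 with the combination, too few to judge. With the combination against R1881, namoline or TCE-5002, SOX11 was past the threshold and lower each time, but on too few counts to judge. It is left out of the counts given.

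**Figure D3:**
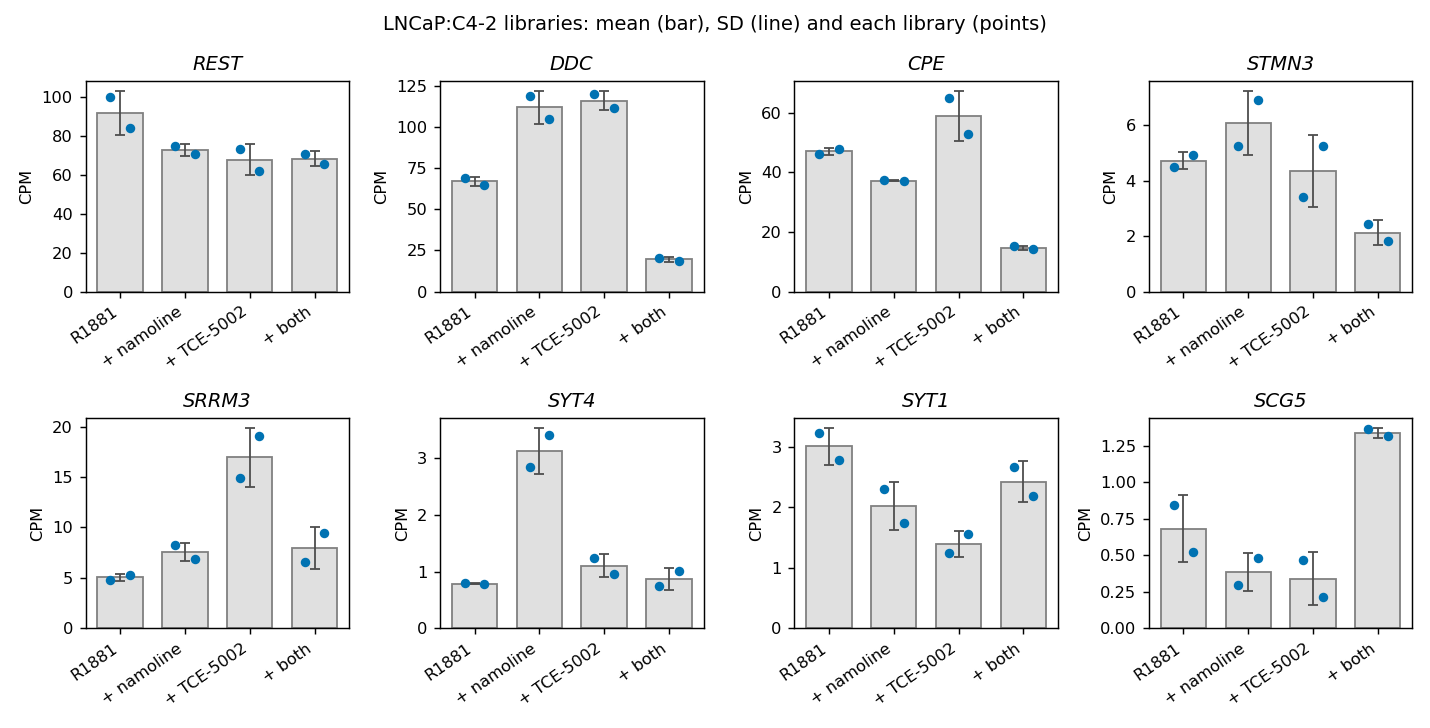
CPM in the 8 C4-2 libraries of REST and of the 7 judged genes past the threshold in a C4-2 comparison of inhibitors, with bars for group means, lines for the SD and points for the 2 libraries of each group, each axis starting at 0. The combination libraries are the lowest for DDC, CPE and STMN3 and the highest for SCG5, while SYT4 peaks with namoline and SRRM3 with TCE-5002.

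Setting the combination against each single inhibitor asks what adding the second compound did. Against namoline, 5 of the 12 judged genes passed, 4 lower and 1 higher, where 27.5% of all genes tested passed, 14.7% lower and 12.8% higher. DDC (-2.53, SE 0.13, edgeR adjusted p 3.28e-09), SYT4 (-1.86, SE 0.34, edgeR adjusted p 0.000333), STMN3 (-1.51, SE 0.28, edgeR adjusted p 0.0003) and CPE (-1.35, SE 0.14, edgeR adjusted p 1.39e-06) were lower and SCG5 was higher (1.76, SE 0.51, edgeR adjusted p 0.00906). Against TCE-5002, 5 of 12 passed again, 4 lower and 1 higher, where 26.1% of all genes tested passed, 14.3% lower and 11.7% higher. DDC (-2.60, SE 0.13, edgeR adjusted p 2.31e-09), CPE (-2.03, SE 0.14, edgeR adjusted p 3.73e-08), SRRM3 (-1.11, SE 0.20, edgeR adjusted p 0.000306) and STMN3 (-1.04, SE 0.28, edgeR adjusted p 0.00585) were lower and SCG5 was higher (1.92, SE 0.51, edgeR adjusted p 0.00524). After the GC correction SRRM3 (-0.60) and STMN3 (-0.68) came under 2-fold in this last comparison, which left 3 of 12. SRRM3 also did so without TCE-5002 replicate 2 (-0.94) and combination replicate 1 (-0.88), and STMN3 without TCE-5002 replicate 2 (-0.71) and combination replicate 2 (-0.84). The call of SCG5 against namoline was lost without namoline replicate 1 (1.48, edgeR adjusted p 0.0877) and combination replicate 1 (1.73, edgeR adjusted p 0.0501). SRRM3 and STMN3 have a high GC content, 68.0% for SRRM3 and 63.5% for STMN3, and the replicate differences of the TCE-5002 libraries followed GC content across genes (Spearman rho -0.779). These 2 comparisons share the combination libraries.

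The interaction term tests whether the combination differed from the sum of the single effects on the log2 scale. It passed for 7 of the 12 judged genes, 5 below and 2 above the sum, where 35.3% of all genes tested passed, 18.6% below and 16.7% above. The largest was that of DDC, at -3.32 (SE 0.17, edgeR adjusted p 3.29e-09), as the single rises did not add up but turned into a fall. SYT4 was at -2.34 (SE 0.52, edgeR adjusted p 0.00149), the namoline rise being absent when TCE-5002 was present. SRRM3 was at -1.69 (SE 0.30, edgeR adjusted p 0.000262), the TCE-5002 rise being smaller when namoline was present. CPE was at -1.67 (SE 0.19, edgeR adjusted p 3.58e-06) and STMN3 at -1.40 (SE 0.38, edgeR adjusted p 0.00593). SCG5 was at 2.78 (SE 0.76, edgeR adjusted p 0.00637) and SYT1 at 1.37 (SE 0.42, edgeR adjusted p 0.0132). The calls of SRRM3 and STMN3 were lost with the GC correction (-0.78 and -0.72), that of SCG5 without R1881 replicate 1 (2.34, edgeR adjusted p 0.0673), and that of SYT1 without R1881 replicate 1, namoline replicate 2 or combination replicate 1 (1.23, 1.18 and 1.20). ONECUT2 was at -0.97 (SE 0.19, edgeR adjusted p 0.000639), just under 2-fold, and passed with the GC correction (-1.11) and without R1881 replicate 1 (-1.001) or namoline replicate 2 (-1.09). REST did not pass (0.34, SE 0.18, edgeR adjusted p 0.125).

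More of the genes were expressed in the libraries labelled LNCaP, and there 7 of 25 judged genes passed with the combination, 3 higher and 4 lower, where 18.7% of all 17565 genes tested passed, 7.44% higher and 11.3% lower. Of the 25, 18 had a change below 0, and their median log2 change was -0.54, against -0.005 over all genes tested. At the adjusted p alone, 13 were lower and 3 higher, 16 in all, where 56.2% of all genes tested passed. Without the library whose header does not name TCE-5002, 5 of 25 passed.

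**Figure D4:**
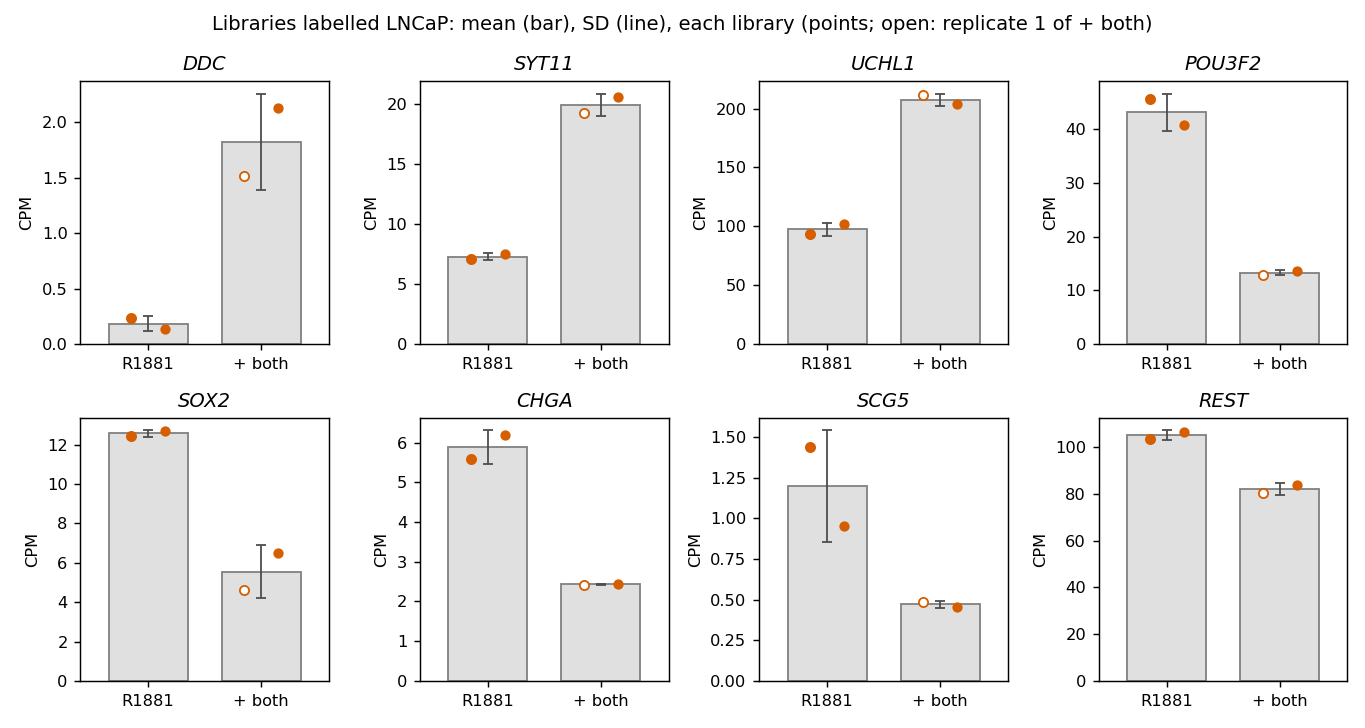
CPM in the 4 libraries labelled LNCaP of the 7 genes past the threshold with the combination and of REST, with bars for group means, lines for the SD and points for libraries, each axis starting at 0; the open point is the combination library whose header does not name TCE-5002. DDC, SYT11 and UCHL1 are higher and POU3F2, SOX2, CHGA and SCG5 lower with both inhibitors, and the open point lies beside the filled one except for SOX2 and DDC.

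The 3 genes that rose came from different roles. DDC went from 0.233 and 0.136 CPM to 1.51 and 2.13 CPM, a log2 change of 3.33 (SE 0.56, edgeR adjusted p 6.58e-06), and 3.54 without that library. It remained far below the level of any C4-2 group, at 25 and 42 counts. SYT11 (chromosome 1, 155859509 to 155885199), a synaptotagmin of vesicle trafficking, went from 7.07 and 7.50 CPM to 19.3 and 20.6 CPM, 1.51 (SE 0.16, edgeR adjusted p 1.46e-09), and 1.55 without that library. UCHL1 (chromosome 4, 41256413 to 41268455) went from 93.7 and 102 CPM to 211 and 204 CPM, 1.15 (SE 0.10, edgeR adjusted p 4.65e-11), and 1.12 without it. In each of the 3 both combination libraries lay above both R1881 libraries.

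The 4 that fell were 2 lineage factors and 2 granule genes. POU3F2 (chromosome 6, 98834592 to 98839490) went from 45.6 and 40.8 CPM to 12.96 and 13.7 CPM, a log2 change of -1.64 (SE 0.13, edgeR adjusted p 5.85e-12), and -1.60 without that library. SOX2 went from 12.5 and 12.7 CPM to 4.60 and 6.49 CPM, -1.11 (SE 0.19, edgeR adjusted p 9.22e-06), and without that library it was -0.90 (edgeR adjusted p 4.9e-05), under 2-fold. CHGA went from 5.58 and 6.19 CPM to 2.42 and 2.44 CPM, -1.22 (SE 0.26, edgeR adjusted p 0.000146), -1.22 without that library, and -0.77 with the GC correction, under 2-fold. CHGA has a GC content of 62.4%, and the replicate difference of the combination libraries followed GC content with a Spearman rho of 0.621 across genes. SCG5 went from 31 and 21 counts to 8 and 9, -1.28 (SE 0.52, edgeR adjusted p 0.034), and lost its call when any 1 of the 4 libraries was left out (-0.96 and -1.55 without R1881 replicates 1 and 2, -1.33 and -1.24 without combination replicates 1 and 2), with DESeq2 (adjusted p 0.143) and with the replicate block (edgeR adjusted p 0.0619).

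The other neuroendocrine markers did not move together in the libraries labelled LNCaP. INSM1 went from 14.3 and 14.9 CPM to 10.54 and 8.83 CPM, a log2 change of -0.54 (SE 0.16, edgeR adjusted p 0.00602), under 2-fold. NCAM1 was at 112 and 109 CPM and 111 and 109 CPM, 0.06 (SE 0.10, edgeR adjusted p 0.652), with overlapping groups. SYP was at 3.86 and 5.28 CPM and 6.36 and 5.88 CPM, 0.48 (SE 0.23, edgeR adjusted p 0.0748). CHGB (-0.15), SCG3 (0.13), SNAP25 (-0.29), SYT1 (0.17) and PCSK2 (-0.54) did not pass at the adjusted p. The filaments NEFL (-0.68, SE 0.10, edgeR adjusted p 1.47e-06) and INA (-0.79, SE 0.11, edgeR adjusted p 1.52e-07) fell by less than 2-fold, and NEFM was at -0.09 (edgeR adjusted p 0.484). ONECUT2 went from 86.7 and 87.1 CPM to 57.5 and 49.1 CPM (-0.65, SE 0.11, edgeR adjusted p 6.72e-06), and SRRM3, SYT4, STMN3 and CPE fell by 0.67, 0.66, 0.59 and 0.55, with edgeR adjusted p of 0.00495, 0.00461, 0.013 and 0.000109. REST went from 104 and 107 CPM to 80.3 and 83.8 CPM, -0.30 (SE 0.10, edgeR adjusted p 0.0141), and -0.27 without the library whose header does not name TCE-5002. The 14 luminal markers also summed to less with the combination in these libraries, 541 and 682 CPM against 1109 and 1192, and the 12 mesenchymal markers to 821 and 857 CPM against 938 and 1035. Their part in these changes was not tested.

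The difference between the lines in the effect of the combination was tested directly. Of the 25 judged genes, 6 passed, 4 with a lower and 2 with a higher change in C4-2, where 25.3% of all genes tested passed, 13.9% lower and 11.4% higher. Of the 25, 12 had under 10 counts in every C4-2 library and were judged only through their level in the libraries labelled LNCaP. A change in C4-2 could not be judged for these 12, nor for POU3F2, with at most 10 counts in any C4-2 library. The 6 of 25 is therefore a description. All 6 calls lay among the genes judged within C4-2. DDC differed by -5.19 (SE 0.41, edgeR adjusted p 5.02e-10), as it fell in C4-2 and rose in the libraries labelled LNCaP. UCHL1 (-2.35, SE 0.41, edgeR adjusted p 4.11e-05), SYP (-1.45, SE 0.40, edgeR adjusted p 0.00417) and CPE (-1.21, SE 0.14, edgeR adjusted p 2.91e-07) had the lower change in C4-2. SCG5 (2.13, SE 0.67, edgeR adjusted p 0.0109) and SRRM3 (1.26, SE 0.27, edgeR adjusted p 0.000526) had the higher change in C4-2. Without the LNCaP combination library whose header does not name TCE-5002 the same 6 passed, at -5.42 for DDC, -2.34 for UCHL1, -1.42 for SYP, -1.23 for CPE, 2.15 for SCG5 and 1.30 for SRRM3. The call of SYP was lost without C4-2 R1881 replicate 1 (-1.06, edgeR adjusted p 0.0733), and that of SRRM3 with the GC correction (0.60) and without C4-2 combination replicate 2 (0.98). ONECUT2 did not pass (-0.14, edgeR adjusted p 0.471), with a fall under 2-fold in each line, and neither did REST (-0.21, edgeR adjusted p 0.22). DDC was the only gene of the 36 past the threshold with the combination in both lines, and in opposite directions.

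**Figure D5:**
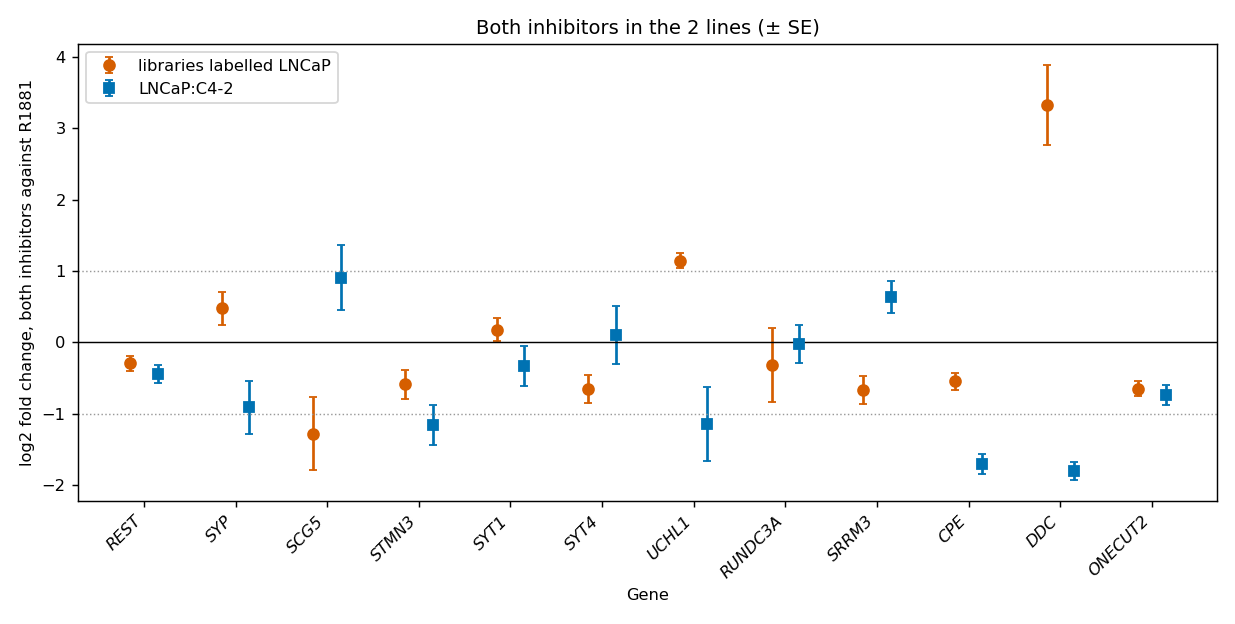
log2 fold change with both inhibitors against R1881 alone of the 12 genes judged in C4-2, in the libraries labelled LNCaP (orange circles) and in C4-2 (blue squares), with bars of 1 SE and dotted lines at 2-fold. DDC is at 3.33 in orange and -1.81 in blue, whereas REST and ONECUT2 lie below 0 in both.

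REST works with corepressors that modify histones and RNA polymerase. Of 18 corepressor genes, all judged, 0 passed by edgeR with namoline, 0 with TCE-5002, 1 with the C4-2 combination and 0 with both inhibitors in the libraries labelled LNCaP, where 12.1%, 11.8%, 21.7% and 18.7% of all genes tested passed. In the 3 comparisons at 0, 10 of the 18 had an unadjusted p under 0.05 each time and DESeq2 also passed 0. The share of all genes at the unadjusted p is not given here, so these counts of 10 are a description. The GC correction passed 1 of 18 with namoline and 1 with TCE-5002, and leaving out the library whose header does not name TCE-5002 passed 1 in the libraries labelled LNCaP, HMG20B (-1.15). At the adjusted p alone 8, 10, 6 and 10 of the 18 passed, where 35%, 36.5%, 50.3% and 56.2% of all genes tested did. The 1 was CTDSP1, a small phosphatase of the REST complex, which fell by 1.46 (SE 0.15, edgeR adjusted p 2.09e-06). The interaction passed for 6 of the 18, 5 below and 1 above the sum, where 35.3% of all genes tested passed, led by HMG20B (-2.16), CTDSPL (-1.94) and CTDSP1 (-1.29, and -0.74 with the GC correction). KDM1A, the target of namoline, was among them at -1.15 (SE 0.16, edgeR adjusted p 3.79e-05), and was named after its value was seen. Against namoline the combination had CTDSPL (-1.63), HMG20B (-1.47) and CTDSP1 (-1.44) lower, 3 of 18, where 27.5% of all genes tested passed, 14.7% lower. Against TCE-5002 it had 4 of 18 lower, led by HMG20B (-1.57), CTDSP1 (-1.31) and CTDSPL (-1.25), where 26.1% of all genes tested passed, 14.3% lower. With the GC correction 3 of 18 passed against TCE-5002, as RCOR2 (-0.83) came under 2-fold. Between the lines under R1881, 2 of 18 passed, both lower in C4-2 and led by RCOR2 (-2.49), where 50.5% of all genes tested passed. The combination effect differed for 1 of 18, where 25.3% of all genes tested passed. It was CTDSP1 (-1.05, and -0.95 without the library whose header does not name TCE-5002).

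The second list of 35 neuronal genes known to be bound by REST was more often expressed in C4-2, with 21 or 22 judged against R1881. With namoline 3 of 21 passed, all higher, where 12.1% of all genes tested passed, namely RAB3A (1.84, SE 0.19, edgeR adjusted p 4.84e-06), a GTPase of synaptic vesicles, GRIN1 (1.54, SE 0.25, edgeR adjusted p 0.000341), an NMDA receptor subunit, and CDK5R1 (1.27, SE 0.17, edgeR adjusted p 5.59e-05), the activator of CDK5. With TCE-5002 7 of 22 passed, 4 higher and 3 lower, where 11.8% of all genes tested passed. They were led by BEX1, which fell from 12 and 10 counts under R1881 to 1 and 2, RAB3A (2.33, SE 0.19, edgeR adjusted p 9.94e-07) and SEZ6 (-1.90, SE 0.58, edgeR adjusted p 0.0184). With the combination 7 of 21 passed, 2 higher and 5 lower, where 21.7% of all genes tested passed, led by DISP2 (-2.53, SE 0.31, edgeR adjusted p 1.32e-05), SEZ6 (-2.49, SE 0.63, edgeR adjusted p 0.00452) and SCAMP5 (-2.15, SE 0.22, edgeR adjusted p 2.59e-06). Among the libraries labelled LNCaP 6 of 28 passed, 3 in each direction, where 18.7% of all genes tested passed, among them CHRM4 (-1.28) and SCN2A (1.24), which came (-0.92 and 0.97) under 2-fold with the GC correction. Without the library whose header does not name TCE-5002, 5 of 28 passed, with CHRM4 at -1.64 and SCN2A, no longer past the threshold, at 0.93. The median log2 changes of the judged genes were 0.05, 0.40, -0.50 and -0.13 in these 4 comparisons, against -0.004, 0, -0.034 and -0.005 over all genes tested. With the GC correction 4 of 22 passed with TCE-5002.

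RAB3A rose with each inhibitor and was lower again with both. It was at 5.38 and 5.72 CPM under R1881, 18.3 and 21.8 CPM with namoline, 24.4 and 31.2 CPM with TCE-5002 and 8.11 and 10.3 CPM with both. The interaction passed for 11 of 22 judged genes of this list, 9 below and 2 above the sum, where 35.3% of all genes tested passed, led by GRIN1 (-3.49, SE 0.37, edgeR adjusted p 2.2e-06), RAB3A (-3.46, SE 0.26, edgeR adjusted p 7.64e-08) and VGF (-2.81, SE 0.34, edgeR adjusted p 7.67e-06), a granule peptide precursor. Against namoline the combination passed for 11 of 20, 9 lower (27.5% of all genes tested), led by DISP2 (-2.65), GRIN1 (-2.12) and SCAMP5 (-2.00), and against TCE-5002 for 9 of 20, 8 lower (26.1% of all genes tested), led by DISP2 (-2.63), SCAMP5 (-2.52) and GRIN1 (-1.95). With the GC correction 8 of 20 passed against namoline and 7 of 20 against TCE-5002. Between the lines under R1881, 24 of 30 passed, 17 lower and 7 higher in C4-2, where 50.5% of all genes tested passed. Among them was SYN1, lower in C4-2, with a ratio of 97.2 and a 95% counting interval of 17.1 to 3870. The combination effect differed between the lines for 11 of 31, where 25.3% of all genes tested passed, led by DISP2 (-3.30) and SEZ6 (-2.85), and for 9 of 31 without the library whose header does not name TCE-5002 (-2.88 and -3.09).

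Of 16 further neuroendocrine factors, 7 were judged in each C4-2 comparison against R1881. With namoline 0 of the 7 passed by edgeR, where 12.1% of all genes tested passed, and 0 by DESeq2, with 1 at an unadjusted p under 0.05. Of the 7, 2 passed with TCE-5002, where 11.8% of all genes tested passed, POU2F3 lower (-1.44, SE 0.42, edgeR adjusted p 0.0155) and DLL3 higher (1.43, SE 0.20, edgeR adjusted p 8.51e-05), a Notch ligand of neuroendocrine tumours. With the combination 3 passed, all lower, where 21.7% of all genes tested passed. ISL1 had 27 and 12 counts under R1881 and 0 in both combination libraries, at least 11.9-fold lower, while POU4F1 (-1.42, SE 0.26, edgeR adjusted p 0.000481) and HES6 (-1.22, SE 0.19, edgeR adjusted p 0.000114) fell by more than 2-fold. Among the libraries labelled LNCaP 2 of 10 passed, both lower, where 18.7% of all genes tested passed, PEG10 (-2.17, SE 0.33, edgeR adjusted p 1.08e-06) and MYCN (-1.28, SE 0.51, edgeR adjusted p 0.0319), whose call was lost with the GC correction (-1.06, edgeR adjusted p 0.0711). Without the library whose header does not name TCE-5002, PEG10 was at -2.12, MYCN lost its call (-1.32, edgeR adjusted p 0.102) and HES6 passed (-1.29). Between the lines under R1881 9 of 11 passed, 7 lower and 2 higher in C4-2 (HES6, 1.87, and POU2F3, 2.14), where 50.5% of all genes tested passed, led by PEG10, with a ratio of 58.9 (95% counting interval 19.9 to 288), MYCN, with a ratio of 44.0 (7.55 to 1770), and POU4F1 (-4.70). The interaction passed for 5 of 7, where 35.3% of all genes tested passed, led by ISL1, DLL3 (-2.12) and POU4F1 (-1.75). Against namoline the combination had POU4F1 (-1.39) and HES6 (-1.37, and -0.92 with the GC correction) lower, 2 of 6 where 27.5% of all genes tested passed, and against TCE-5002 4 of 6 passed, where 26.1% of all genes did, led by POU4F1 (-1.78), HES6 (-1.45) and POU2F3 (1.25). With the GC correction 2 of 6 passed against TCE-5002, as HES6 (-0.88) and DLL3 (-0.84) came under 2-fold. The combination effect differed between the lines for 3 of 11, where 25.3% of all genes tested passed, with and without that library, ISL1, PROX1 and PEG10, for which no fold is given because a C4-2 group had at most 3 counts in all. The 14 luminal markers summed to between 3034 and 3177 CPM in the C4-2 combination against between 5753 and 5896 CPM under R1881, and their part in the falls of the C4-2 combination was not tested.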

How the data were processed

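RNA was sequenced from 12 libraries of cultured LNCaP and LNCaP:C4-2 cells, 2 biological replicates per group per the study's methods, after capture of polyadenylated RNA. The deposited values are raw counts per gene, 1 file per library, made by the authors with featureCounts 1.5.0-p1 and Ensembl release 83 gene models (GRCh38) per the file headers. Per the labels, reads were trimmed with Trim Galore and aligned with STAR, whose versions are not given in the sources used here. The headers show paired-end counting with no strand option, so the counts were taken as unstranded. A treatment text in the labels describes siRNA, which belongs to no group here.

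Library totals were between 14791602 and 20690819 counts. Groups were taken from the labels. The header of 1 file, LNCaP combination replicate 1, names namoline but not TCE-5002. The dose of TCE-5002 differs between the series text and the methods. Gene symbols were matched for 57055 of 60675 genes. Counts were scaled by TMM and tested with edgeR 4.0.16 (R 4.3.3, limma 3.58.1), using its quasi-likelihood F test after filterByExpr, and adjusting p by Benjamini-Hochberg across every gene tested. The 4 C4-2 groups, the 2 LNCaP groups, and the R1881 and combination groups of both lines were each fitted together. Past the threshold means an adjusted p under 0.05 and at least 2-fold. SE is the absolute log2 change divided by the square root of F. CPM used the TMM factors of all 12 libraries. A group at 0 counts was set to 3 counts over the group for a lower bound of a fold, and ratios with 1 to 3 counts have 95% binomial intervals, both covering counting error only. Between replicates, log2 CPM correlated with r from 0.9816 to 0.9955 and counts differed beyond sampling noise.

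Named with full values were REST, CHGA, SYP, NCAM1, INSM1 and ONECUT2 and every judged gene past the threshold against R1881; of the other lists, up to 3 genes with the largest change per comparison. A few genes that this rule names are not reported here. Genes named for a change of call without a library, FIGNL1, and HES6 and POU2F3 between the lines, were chosen after their values were seen. The genes and lists were chosen with earlier results of these data known. Alternatives were RLE scaling, no filter, the likelihood ratio test, DESeq2 1.42.0, a replicate block, a GC offset, both together, only 4 libraries, the adjusted p alone and leaving out each library, where a group of 1 library is assumed to vary like the others. The GC offset subtracts from each library a smooth trend of log2 CPM deviations on the GC content of the gene's transcript. The tests were tried on simulated data before use.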

Additional observations from a re-analysis of the deposited data

Results flagged for a closer look

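For 6 of the 25 genes judged, the log2 change with both inhibitors differed between the lines by a test of the difference itself, given here as the change in C4-2 minus that in the libraries labelled LNCaP. Of the 25, 12 had under 10 counts in every C4-2 library and POU3F2 at most 10, so a change in C4-2 could not be judged for them. DDC, the aromatic amino acid decarboxylase, differed by -5.19 and UCHL1 by -2.35, each with a rise in the libraries labelled LNCaP. SCG5, the PCSK2 chaperone, differed by 2.13, on at most 31 counts in any of the 8 libraries. SYP differed by -1.45, CPE by -1.21 and SRRM3 by 1.26. For SYP and SRRM3 neither line's own change passed the threshold, and for CPE the change was a fall in both lines. The call of SRRM3 was lost with the GC correction (0.60). The group of libraries labelled LNCaP also differs from C4-2 in its luminal and mesenchymal markers, and the combination library whose header does not name TCE-5002 is part of each of these values.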

How the results depend on the processing

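With 2 libraries per group, the counts of genes past the threshold rest on single libraries. Leaving out each library in turn gave 1 to 1 gene with namoline, 1 to 2 with TCE-5002, 2 to 4 with the C4-2 combination, 4 to 5 against namoline, 3 to 5 against TCE-5002, 6 to 7 for the interaction, 5 to 6 in the libraries labelled LNCaP, 19 to 20 between the lines and 6 to 6 for the difference of effects. The adjusted p alone gave 4 genes with namoline, 4 with TCE-5002, 6 with the C4-2 combination and 16 with both inhibitors in the libraries labelled LNCaP. Against TCE-5002 the combination passed for 3 genes with the GC offset and for 3 with the GC offset and replicate block. Other counts stayed within 1.5 times, and no named gene reversed its direction where either value passed the threshold. Reversals of changes that did not pass were not counted. RUNDC3A, for 1, went from 0.23 to -0.08 in the difference of effects without the LNCaP combination library whose header does not name TCE-5002. Over the named genes, apart from the adjusted p alone, 1358 values kept their side of the threshold, 34 lost and 16 gained a call. UCHL1 with the C4-2 combination gained its call by the likelihood ratio test and in a fit of only 4 libraries. For the difference of effects, CHGA (3.09 without C4-2 combination replicate 2) and NCAM1 (-3.30 without C4-2 R1881 replicate 1) gained a call on at most 5 counts in any C4-2 library, and STMN3 gained one with the GC offset (-1.09). The GC offset moved the median of all genes in the interaction from -0.012 to 0.116. The replicate numbers were not shown to pair the libraries, as replicate differences correlated between C4-2 groups with r from -0.015 to 0.371 and between the LNCaP groups with r 0.077; the replicate block ended the SCG5 call in the libraries labelled LNCaP (-1.25 on the log2 scale). Depth leaves 11 genes unjudged throughout, and a change from 0 of a few counts cannot be seen.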
